A study of Mus musculus with 10 samples.

Results

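Slc2a1, Abcb1a, Slco1c1 and Ly6c1, 4 genes known from the endothelium of the blood-brain barrier, were followed across 10 arrays of mouse hypothalamus. They are 4 of the 19505 genes measured. Each has 1 probe set on the array, so the rule of keeping the probe set with the highest mean over the arrays left nothing out. The genes were selected on the deposited log2 values of these arrays, with their levels in both age groups known, so their age differences are given as a description, with no test. The 5 Old arrays held hypothalamus RNA from C57BL/6J males aged 138 weeks, and the 5 Young arrays that from C57BL/6J males aged 24 weeks. C57BL/6J is a common inbred mouse strain. All mice were kept on a light-dark cycle with free access to feed and water, and the labels give no treatment or engineered allele in either group. The labels do not say that each array was a separate animal, so p-values and SDs cover only how far these samples lie apart, a spread that may be technical.

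The blood-brain barrier is formed by capillary endothelial cells joined by tight junctions, so that nutrients, hormones and drugs cross it mainly on membrane transporters. Slc2a1 encodes the glucose transporter GLUT1, which carries glucose from blood to brain and is also made by astrocytes. Abcb1a encodes P-glycoprotein, the efflux pump that returns many drugs to the blood and the main form in mouse brain capillaries. Slco1c1 encodes an organic anion transporting polypeptide that takes up thyroxine, and in mice it is found in brain capillaries, astrocytes and the choroid plexus. Ly6c1 encodes a surface protein with a lipid anchor that marks mouse brain endothelium, and its close relative Ly6c2 is known from monocytes.

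Values are the deposited log2 signal, read as log2 from their range of 5.00 to 12.97, since the file does not name the log base. Each fold rests on that reading. In the deposited values 98.0% of genes (19118 of 19505) had an SD over the 10 arrays of 1e-05 log2, within a tolerance of 1%, and are called flat here. The word varying is used for the 276 genes whose SD reached 0.01 log2; a further 111 fell in neither class. A flat gene has a level, but its values cannot show a difference between ages. All 4 genes were varying, and no filter on low values or detection call was used. The fit with limma covered every gene, Old minus Young, and a gene is said to have risen or fallen where its Benjamini-Hochberg adjusted p was under 0.05.

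The sequence before the start of each gene is shown as a description, and a link between it and the levels by array was not tested. The sequences are RefSeq's for build GRCm38.p6, 5′ to 3′ on the gene's own strand, from 250 bases before the annotated start up to that start. For Ly6c1 the listed 250 bases run past the gene's outermost annotated start to a start further inside, and only the 167 bases before the outermost start are printed. The capitals mark matches, on either strand, to 4 short motifs chosen after the sequences had been seen. The first is the TATA box, searched as TATAAA. The second is the GC box, searched as GGGCGG. The third is the core of sites for ETS factors, searched as GGAAGT. The last is the core of sites for forkhead factors, searched as TAAACA.
Slc2a1, chr4:119108495-119108744, + strand, 250 bases: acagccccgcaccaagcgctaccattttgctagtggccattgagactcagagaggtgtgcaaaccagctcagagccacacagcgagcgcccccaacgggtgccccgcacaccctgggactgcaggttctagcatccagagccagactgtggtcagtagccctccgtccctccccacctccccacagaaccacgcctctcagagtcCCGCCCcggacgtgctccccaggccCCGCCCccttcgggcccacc
Abcb1a, chr5:8566841-8567090, + strand, 250 bases: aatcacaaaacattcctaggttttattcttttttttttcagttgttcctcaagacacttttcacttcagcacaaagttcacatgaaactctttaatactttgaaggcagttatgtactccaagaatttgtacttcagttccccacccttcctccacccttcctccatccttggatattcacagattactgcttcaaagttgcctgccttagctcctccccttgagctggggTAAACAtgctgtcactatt
Ly6c1, chr15:75048921-75049087, - strand, 167 bases: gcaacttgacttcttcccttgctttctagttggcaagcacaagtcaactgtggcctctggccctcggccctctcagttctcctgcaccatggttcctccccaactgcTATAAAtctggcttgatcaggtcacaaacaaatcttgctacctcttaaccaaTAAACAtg
Slco1c1, chr6:141524104-141524353, + strand, 250 bases: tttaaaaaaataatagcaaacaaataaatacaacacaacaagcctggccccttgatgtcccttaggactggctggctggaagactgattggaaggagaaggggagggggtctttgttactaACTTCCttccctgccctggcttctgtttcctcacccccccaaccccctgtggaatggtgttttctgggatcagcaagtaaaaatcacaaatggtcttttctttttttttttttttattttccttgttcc

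The Slc2a1 sequence differs from the others in base composition. It holds 13 CpG in 250 bases and has 66.4% G and C. The 250 bases of Abcb1a and Slco1c1 hold 0 CpG each and those of Ly6c1 hold 1. The median over the 27025 genes with such a sequence is 6 CpG and 52% G and C. Slc2a1 holds 2 GC boxes, and 32.9% of all such sequences hold at least 1. Abcb1a and Ly6c1 each hold the forkhead core, present in 12% of all. Ly6c1 also holds the TATA box letters (13% of all), 60 bases before the end of the printed sequence, and Slco1c1 the ETS core (20% of all). A match describes the letters and is not a site where a factor was shown to bind.

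Abcb1a was the gene of the 4 whose arrays separated most by age. It had 8.43, 8.46, 8.21, 8.32 and 8.23 log2 in Old 1 to Old 5, against 8.09, 8.13, 8.13, 8.17 and 8.21 log2 in Young 1 to Young 5. Of the Old arrays, 4 lay above every Young array, and the groups overlapped through Old 3 and Young 5 alone. The means were 8.33 ± 0.11 log2 in Old and 8.15 ± 0.049 log2 in Young (SD, n = 5 each), a difference of 0.18 (SE 0.052) or 1.14-fold. With any single array left out the difference stayed between 0.15 and 0.21. Because this is RNA of the whole hypothalamus, more endothelial cells and more transcript per cell cannot be told apart, here and for the other genes.

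Slc2a1 lay at nearly the same level in both groups. It had 10.27, 10.44, 10.24, 10.21 and 10.21 log2 in Old 1 to Old 5, against 10.30, 10.19, 10.41, 10.25 and 10.35 log2 in Young 1 to Young 5. The Young arrays spanned nearly the whole range of the Old arrays, and 4 of the 5 Old arrays lay below the Young median. The means were 10.28 ± 0.096 log2 in Old and 10.30 ± 0.086 log2 in Young (SD, n = 5 each), a difference of -0.022 (SE 0.054) or 0.985-fold. The sign of this difference turned without Young 3, the highest Young array, where it was 0.0057. With any other single array left out it stayed below 0, and it was -0.064 without Old 2, the highest Old array.

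Ly6c1 had a mean that was higher in Old, and a single array carried most of that difference. It had 9.15, 9.51, 9.21, 9.17 and 8.96 log2 in Old 1 to Old 5, against 9.13, 9.0, 9.19, 9.13 and 8.96 log2 in Young 1 to Young 5. Old 2 and Old 3 lay above every Young array, while Old 5 was level with Young 5, the lowest Young array. The means were 9.20 ± 0.20 log2 in Old and 9.08 ± 0.098 log2 in Young (SD, n = 5 each), a difference of 0.12 (SE 0.093) or 1.09-fold. Without Old 2 the difference was 0.043, and without Old 5 it was 0.18. Ly6c2, the neighbouring gene on chromosome 15 with 0 protein-coding genes between the pair, was flat at 6.56 log2. The genes are similar in sequence, so the Ly6c1 probe set may take some signal from Ly6c2 transcripts, which was not tested.

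Slco1c1 had a mean that was lower in Old, and the difference moved most when a single Young array was left out. It had 8.43, 8.47, 8.59, 8.60 and 8.57 log2 in Old 1 to Old 5, against 8.51, 8.63, 8.56, 8.75 and 9.04 log2 in Young 1 to Young 5. Each of the 5 Old arrays lay below the Young median, and 2 of them, Old 1 and Old 2, below every Young array. The means were 8.53 ± 0.077 log2 in Old and 8.70 ± 0.21 log2 in Young (SD, n = 5 each), a difference of -0.17 (SE 0.095) or 0.892-fold. Without Young 5 the difference was -0.080, and without Old 2 and Young 5 together, a choice made after seeing the data, it was -0.064 (0.012 for Ly6c1). It stayed below 0 with any single array left out.

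**Figure D1:**
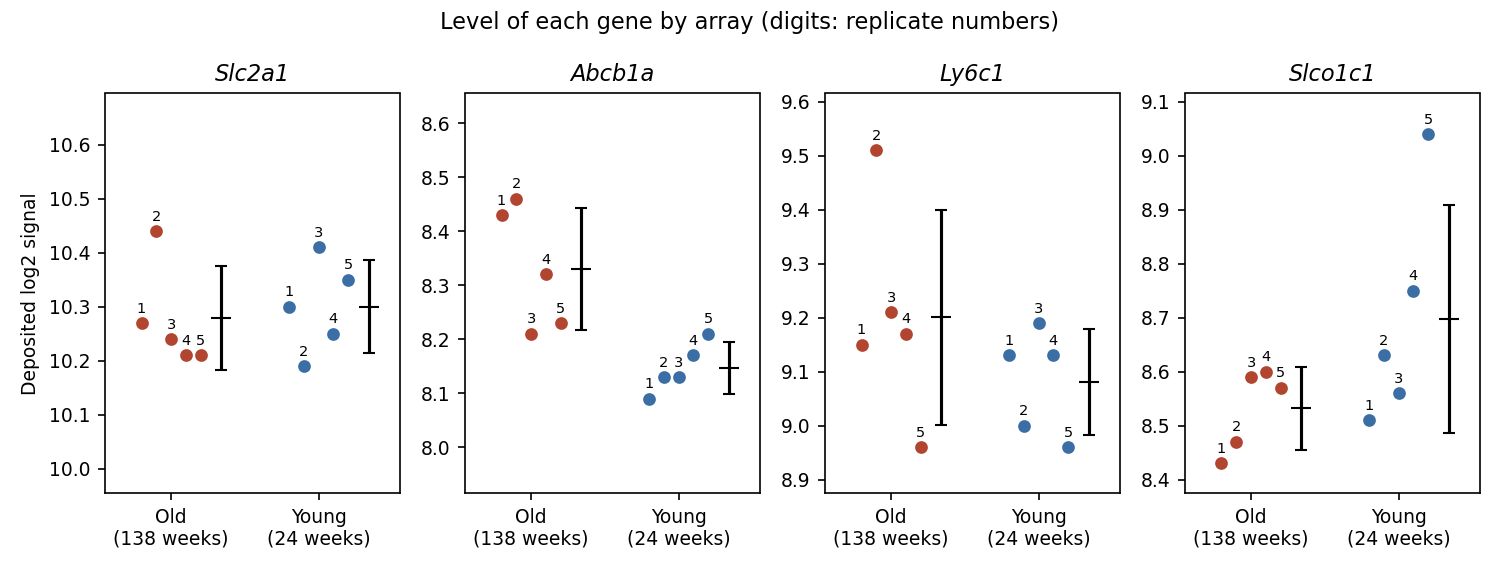
Deposited log2 signal (vertical axes, each spanning the same number of log2 units) of Slc2a1, Abcb1a, Ly6c1 and Slco1c1 in the Old arrays (138 weeks, left) and the Young arrays (24 weeks, right). Each point is an array with its replicate number, and the bar gives the mean ± SD (n = 5); for Abcb1a 4 Old arrays lie above all Young arrays, while Old 2 is the highest array for Slc2a1 (10.44) and Ly6c1 (9.51) and Young 5 for Slco1c1 (9.04).

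Of the 4 genes 0 passed the limma threshold over all genes, where 43 of 19505 genes (0.22%) passed, 37 as higher in Old (0.19%) and 6 as lower (0.0308%). In a limma fit to the 276 varying genes alone 1 of the 4, Abcb1a, passed as higher, where 99 genes (35.9%) passed, 68 as higher in Old (24.6%) and 31 as lower (11.2%). In 0 of the 4 did the Old and Young arrays fail to overlap, against 77 of the varying genes (27.9%) and 268 of all genes (1.37%). Because the genes were chosen with this comparison known, these counts support nothing. The median size of the age difference over the varying genes was 0.11 log2. By size of difference Abcb1a stood at place 94 of the 276 varying genes, Slco1c1 at 106, Ly6c1 at 134 and Slc2a1 at 255. By SD over the 10 arrays Slco1c1 stood at place 90, Ly6c1 at 100, Abcb1a at 141 and Slc2a1 at 194.

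**Figure D2:**
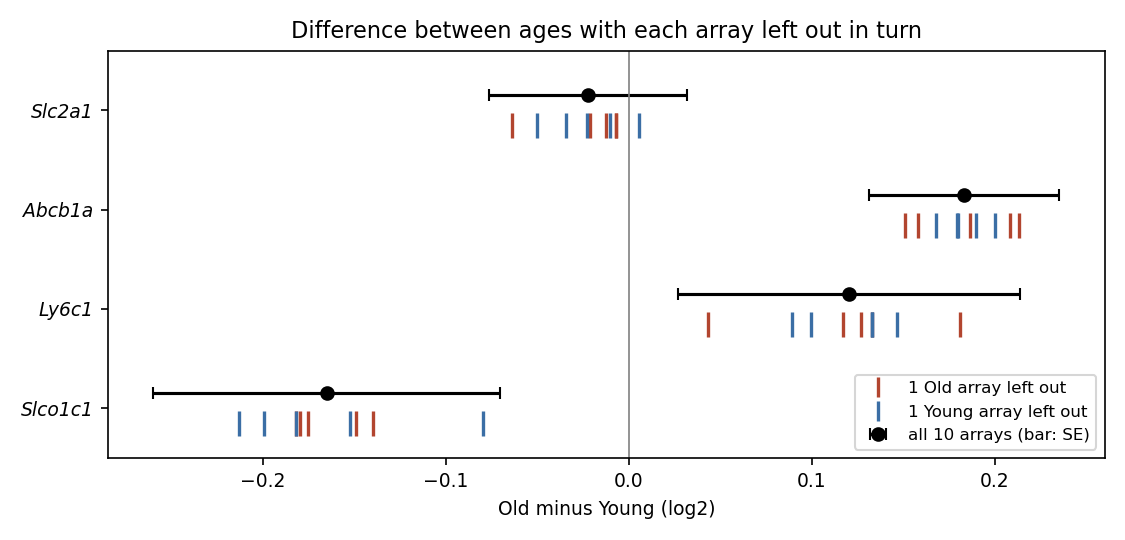
Difference Old minus Young in log2 (horizontal axis) for each gene with all 10 arrays (black point, bar of 1 SE) and with each array left out in turn (ticks, coloured by the group of the array left out). The difference of Abcb1a stays between 0.15 and 0.21, that of Ly6c1 is 0.043 without Old 2, that of Slco1c1 is -0.080 without Young 5, and that of Slc2a1 lies on both sides of 0.

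Within the groups, Slc2a1, Abcb1a and Ly6c1 shared their highest Old array. Old 2 lay above the Old mean by 0.17 log2 for Slc2a1, 0.13 for Abcb1a and 0.31 for Ly6c1, and deviated by -0.06 for Slco1c1. It was the highest of all 10 arrays for those 3 genes. Among the 276 varying genes Old 2 was the highest Old array for 63 (22.8%). In Young 3 both Slc2a1 and Ly6c1 were 0.11 log2 above the Young mean, the highest Young values of each. Across the 10 arrays the deviations from the group means of Slc2a1 and Ly6c1 had a Pearson correlation of 0.70 (Spearman 0.59), those of Slc2a1 and Abcb1a 0.54 (0.35) and those of Abcb1a and Ly6c1 0.43 (0.14). Without Old 2, left out after seeing the data, the Pearson values were 0.32, 0.21 and -0.049. The common course of these 3 genes therefore rested largely on Old 2. Slco1c1 had correlations of -0.42 with Ly6c1, -0.10 with Slc2a1 and 0.079 with Abcb1a. Without Young 5, left out after seeing the data, these were -0.32, -0.55 and -0.36, so the sign of the last and the size of the second rested on that array. The points share their arrays and normalization, and these correlations are a description.

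**Figure D3:**
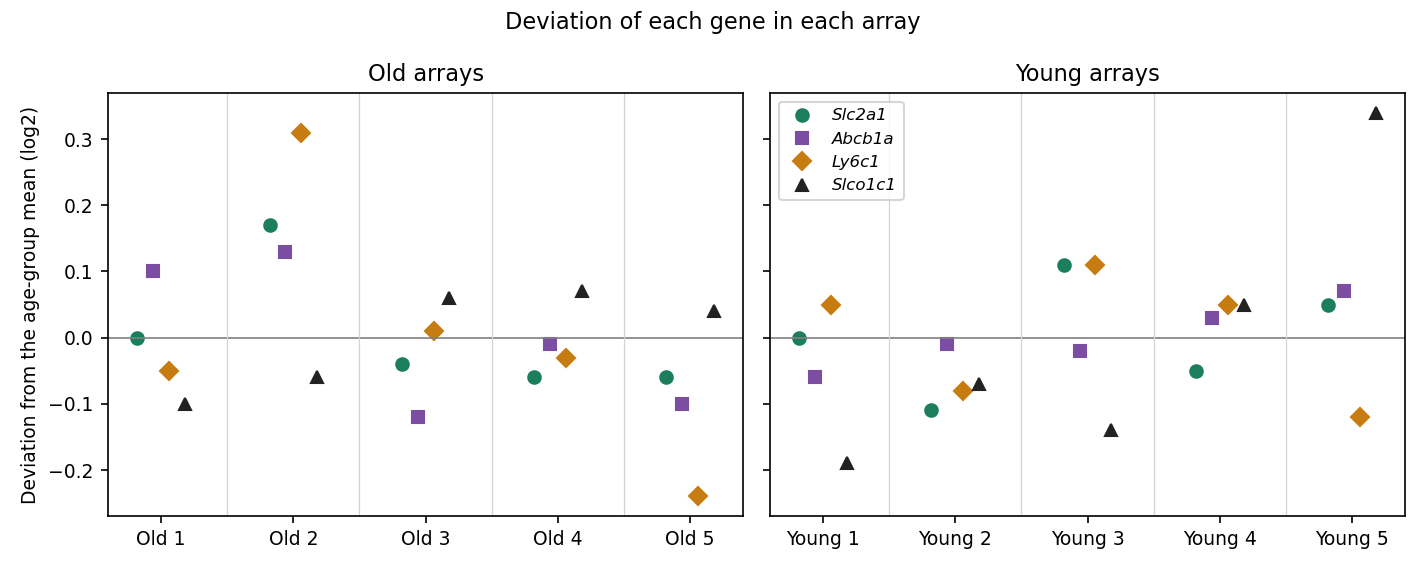
Deviation in log2 of each array from the mean of its own age group (vertical axis) for Slc2a1, Abcb1a, Ly6c1 and Slco1c1, with the Old arrays in the left panel and the Young arrays in the right. Old 2 is above the mean for Slc2a1 (0.17), Abcb1a (0.13) and Ly6c1 (0.31), and Young 5 is above it for Slco1c1 (0.34) and below it for Ly6c1 (-0.12).

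Old 2 was also the array with the highest signal of Vwf and Lcn2. Besides Ly6c1 these were the only varying genes in the lists of endothelial identity and of venous and inflamed endothelium. Old 2 was the highest of all 10 arrays for 44 of the 276 varying genes (15.9%). It was so too for the mean of the varying genes in the microglia, interferon-stimulated, hypothalamus and glycolysis lists. It was not the highest for Slc38a2, the other varying gene of barrier transport, at 9.73 log2 against 9.92 in Old 4. Vwf, which encodes the clotting protein von Willebrand factor stored by endothelial cells, had 6.42, 7.04, 6.45, 6.47 and 6.48 log2 in Old 1 to Old 5, against 6.41, 6.44, 6.30, 6.29 and 6.33 log2 in Young 1 to Young 5. Lcn2, which encodes lipocalin 2, an acute-phase protein made by inflamed endothelium and astrocytes, had 6.89, 7.95, 6.22, 6.42 and 6.14 log2 in Old, against 5.83, 5.78, 7.34, 5.76 and 5.88 log2 in Young. For Vwf Old 2 stood alone. For Lcn2 Old 2 and Young 3 were the 2 highest arrays, and they were also the highest of their groups for Slc2a1 and Ly6c1. Between ages neither passed. Vwf differed by 0.22 (SE 0.11, limma adjusted p = 0.79), and by 0.10 without Old 2. Lcn2 differed by 0.60 (SE 0.43, limma adjusted p = 0.87), by 0.30 without Old 2 and by 0.91 without Young 3. What the arrays Old 2 and Young 3 have in common was not tested.

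Young 5, the highest array for Slco1c1, was the highest of all 10 arrays for each of the 9 varying markers of the choroid plexus, the epithelium that secretes cerebrospinal fluid. Their mean was 8.08 log2 in Young 5, against 6.40 to 6.52 in the Old arrays and 6.39 to 6.55 in the other Young arrays. The other 4 of the 13 measured markers were flat. Summed over all 13 on the linear scale, the markers gave 10.23 to 10.35 log2 in Old and 10.23 to 12.91 log2 in Young. Ttr, which encodes the thyroxine carrier transthyretin, had 12.44 log2 in Young 5 and 6.90 to 7.97 log2 in the other arrays. In those 9 arrays Slco1c1 still ran from 8.43 to 8.75 log2. The part of choroid plexus RNA in the Slco1c1 value of Young 5 was not tested. Of the 9 varying markers, Ttr, Kl, Kcnj13, Folr1, Kcne2, Cldn1, Otx2 and Steap1 differed by -1.13 to -0.095 log2 between ages, with limma adjusted p from 0.87 to 0.92. Without Young 5 their differences ran from -0.13 to 0.039, and Kcnj13 and Steap1 were then above 0.

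**Figure D4:**
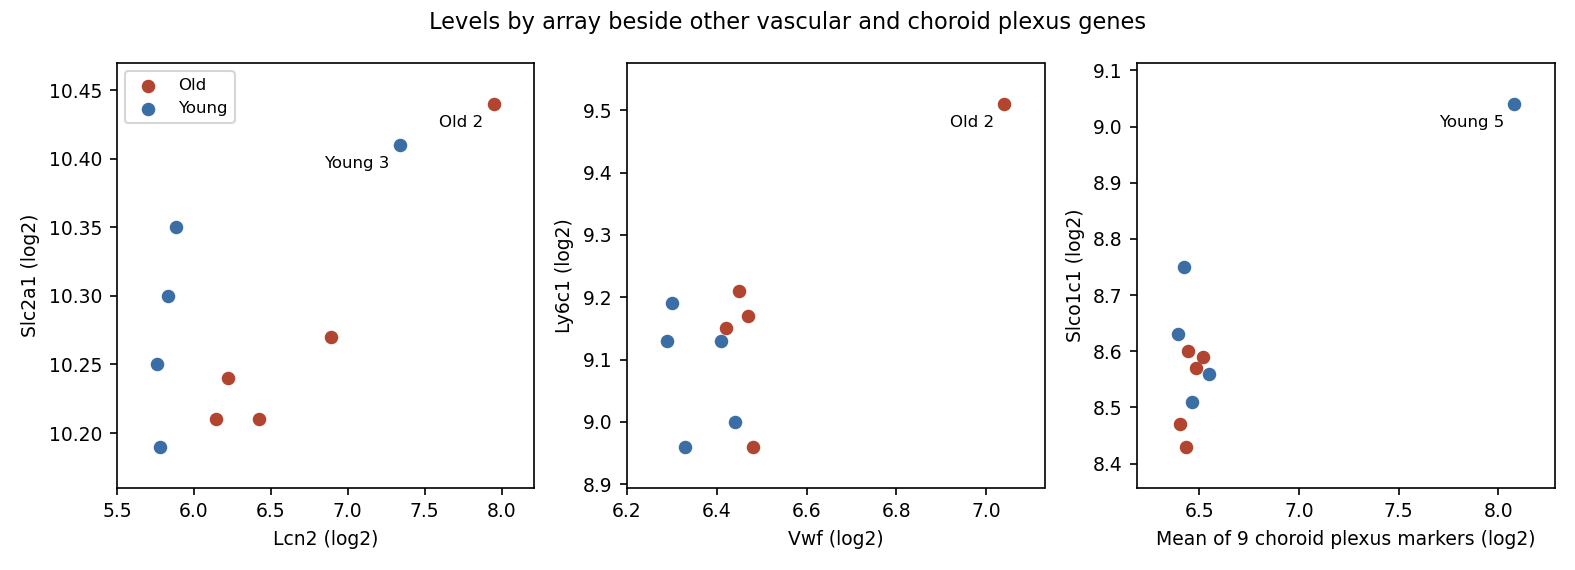
Levels by array in log2: Slc2a1 against Lcn2 (left), Ly6c1 against Vwf (middle) and Slco1c1 against 9 averaged choroid plexus markers, those that varied (right), with Old and Young arrays in the colours of the legend. Old 2 lies at the upper right in the left and middle panels (Lcn2 7.95, Vwf 7.04), Young 3 is second in the left panel (Lcn2 7.34), and Young 5 lies alone at the upper right of the third (8.08 for the marker mean).

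For each gene the 3 varying genes with the most similar deviations from the group means over the 10 arrays were listed. For Slc2a1 they were Tmem252 (Pearson 0.90, Spearman 0.72), Lcn2 (0.88, 0.76) and Mt2 (0.85, 0.87), a metallothionein gene. Each of these 3 was highest in Old 2, and their Pearson values were 0.83, 0.76 and 0.76 without it. For Abcb1a they were Npy, the gene of the feeding peptide neuropeptide Y (0.93, 0.85), Prxl2a (0.84, 0.75) and Nnat (0.83, 0.70), again each highest in Old 2. The likeness to Npy was 0.89 without Old 2. For Ly6c1 they were Bbs9 (0.88, 0.83), Cnih2, which encodes an auxiliary subunit of AMPA receptors (0.86, 0.77), and C1qb, a complement chain made by microglia (0.85, 0.76), with 0.80, 0.70 and 0.71 without Old 2. Over the values themselves, age difference included, Cnih2 and Ly6c1 had a correlation of 0.048, as Cnih2 was lower in Old (-0.14) and Ly6c1 higher. Picked anew without Old 2, the 3 for Ly6c1 were Pcdhb15 (Pearson 0.88), Fa2h (0.85) and Mbp (0.83), and none of its first 3 stayed. Of their first 3, Slc2a1 then kept Tmem252 alone and Abcb1a kept Npy alone. These lists thus depended on Old 2.

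For Slco1c1 the most similar genes were Lamb1, a laminin chain of basement membranes (0.95, 0.85), Sulf1, an extracellular sulfatase (0.89, 0.89), and Kl, the klotho gene known from choroid plexus (0.87, 0.68). All 3 were highest in Young 5. Without Young 5 the likeness to Kl was 0.39, while those to Lamb1 and Sulf1 were 0.82 and 0.71. Picked anew without Young 5, the 3 most similar were Cd9 (Pearson 0.85), Lamb1 (0.82) and Ecel1 (0.80), with Sulf1 and Kl no longer among them. Lamb1 had 5.93, 5.98, 6.08, 5.98 and 6.03 log2 in Old 1 to Old 5, against 5.96, 6.04, 5.93, 6.09 and 6.32 log2 in Young 1 to Young 5. As for Slco1c1, Old 1 was among the lowest arrays, and Young 4 and Young 5 were the 2 highest. The genes named for each were picked as the most similar among the varying genes and share their arrays with the gene they were set against.

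The closest relatives of the 4 genes were flat. Abcb1b, the second P-glycoprotein gene, which lies next to Abcb1a on chromosome 5, was at 7.23 log2. Slco1a4, another organic anion transporter of mouse brain capillaries, was at 7.91 log2, and Slc2a3, the neuronal glucose transporter GLUT3, at 8.75 log2. In the families as wholes 11 of 11 other facilitated glucose transporters, 13 of 13 other Slco genes, 10 of 10 other multidrug transporters and 16 of 16 other measured Ly6 and related genes were flat. In each list the gene described here was thus the sole varying one in the deposited values, and these values cannot show whether a relative changed. Ly6a was not analysed here.

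Other barrier and endothelial genes gave no call. Of 31 other measured genes of barrier transport 0 rose and 0 fell, 28 were flat, and 1 varied. This was Slc38a2, which encodes an amino acid transporter, at -0.049 (SE 0.095, limma adjusted p = 0.97), and at 0.044 without Old 1. Of the flat ones Abcg2, a second drug efflux pump, lay at 7.61 log2 and Slc7a5, the large neutral amino acid transporter, at 8.91 log2. Mfsd2a, the lipid transporter of barrier endothelium, lay between flat and varying at 7.89 log2. Of 51 other measured genes of endothelial identity 0 rose and 0 fell, 48 were flat, and Vwf alone varied. Cldn5, the tight junction claudin, was flat at 7.77 log2, the cadherin gene Cdh5 at 7.22, Pecam1 at 6.71 and the VEGF receptor gene Flt1 at 8.36. The median age difference over each of these lists was under 1e-05 log2 in size, as over all genes. As most genes of each list were flat, these medians could hardly have been otherwise. Whether the share of endothelium differed between arrays could not be read from flat markers. Of 11 genes of venous and inflamed endothelium 9 were flat, and Vwf and Lcn2 varied; the list's linear sum gave 10.88 to 11.04 log2 in Old and 10.86 to 10.94 log2 in Young.

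In further lists 0 of 18 pericyte and smooth muscle genes, 0 of 14 genes of Wnt signalling to the barrier, 0 of 15 other genes of hypoxia and VEGF, 0 of 11 tanycyte genes, 0 of 11 lymphocyte genes and 0 of 3 measured red blood cell genes varied. Of 20 glycolysis and lactate genes Aldoc alone varied. It encodes the aldolase of astrocytes and differed by 0.061 (SE 0.032, limma adjusted p = 0.79), with its highest value, 11.86 log2, in Old 2. Without Old 2 it differed by 0.032. Of 18 other thyroid hormone genes 2 varied, Ttr and Trh, which encodes thyrotropin-releasing hormone, and 0 passed. A list of 14 genes known from the hypothalamus could not test the identity of the tissue, as no other tissue was measured. Of these 7 were flat, while Avp, Hcrt and Pmch had means over the 10 arrays of 9.37, 9.03 and 10.36 log2. In this list 6 genes varied, those 3 with Npy, Sst and Trh, and 0 passed over all genes; Avp differed most, by 0.62 (limma adjusted p = 0.18), and Sst by -0.16 (limma adjusted p = 0.47). In the limma fit to the varying genes alone both passed, with adjusted p of 0.0035 for Avp and 0.027 for Sst.

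The lists of glial cells, myeloid cells and the interferon response held genes that did pass. Of 15 astrocyte genes 1 rose (Gfap, by 0.44) and 3 fell. Kcnj10 fell by 0.48, Ntsr2 fell by 0.30, and Slc7a10, which was not varying, fell by 0.00045. Gja1 at -0.14 and Slc1a2 at 0.0040 varied and did not pass over all genes, and the sign for Slc1a2 turned without several of the arrays. Of 14 microglia genes 4 rose, Ctss by 0.91, Mpeg1 by 0.70, and Trem2 and C1qc, which were not varying, by 0.0017 and 0.0059. C1qa at 0.34 and C1qb at 0.29 varied and did not pass over all genes. Of 17 interferon-stimulated genes 3 rose, Ifit3 by 1.12, Ifit3b by 1.04 and Xaf1, which was not varying, by 0.0075. Oasl2 at 0.42 and Ifitm3 at 0.30 varied and did not pass over all genes. In the limma fit to the varying genes alone C1qa, C1qb and Oasl2 passed with an adjusted p of 0.0015 each, Ifitm3 with 0.0055 and Gja1 with 0.035, and Slc1a2 did not (0.91). Of 12 genes of monocytes and granulocytes Lyz2, also made by microglia, rose by 0.84, and the other 11 were flat, Ly6c2 among them. The adjusted p of these 12 calls ran from 0.000172 to 0.0396 with limma over all genes. The call of Gfap held in 2 and that of Lyz2 in 6 of the 10 fits that left out 1 array, with adjusted p up to 0.142 and 0.0613. Those of C1qc and Slc7a10 held in 1 and 6 of these fits (adjusted p up to 0.098 and 0.0639), and those of Kcnj10, Ntsr2, Trem2 and Xaf1 in all 10. Without Young 3 and Young 5 the calls of Kcnj10, Trem2, Slc7a10 and C1qc were lost (limma adjusted p = 0.168, 0.141, 0.223 and 0.221). Without Old 2 and Young 5 these were lost too (limma adjusted p = 0.102, 0.102, 0.106 and 0.190). So were those of Lyz2 (limma adjusted p = 0.114) and Xaf1 (0.0652). After median centring Trem2 differed by 0.00027 log2 and lost its call (limma adjusted p = 0.683), and Slc7a10 missed the threshold (0.0521). After quantile normalization Trem2 differed by 0.00030 log2 and was not called (limma adjusted p = 0.629). Gfap and C1qc also missed the threshold with a trended robust prior (limma adjusted p = 0.095 and 0.070). With no moderation of the variance both missed it too (adjusted p = 0.107 and 0.079 from the limma fit). With the replicate number as a block Ntsr2, Kcnj10, Lyz2, C1qc and Gfap missed it (limma adjusted p = 0.145, 0.245, 0.406, 0.403 and 0.467).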

How the data were processed

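Total RNA of the hypothalamus, 5 Old and 5 Young samples, was labelled as biotin cDNA from 100 ng and hybridised to Clariom S Mouse arrays, per the labels' protocols. The deposited values are 1 log2 number per probe set and array; for the authors' background correction, normalization and summarisation, no method was given in the sources used here. Of 22206 probe sets 19572 had 1 gene symbol in the platform's annotation, 0 several and 2634 none here. All 19572 identifiers matched RefSeq (GRCm38.p6). The probe set with the highest mean was kept per gene. Samples were grouped by title. limma 3.58.1 in R 4.3.3 (lmFit, eBayes, 2-sided, Benjamini-Hochberg adjustment over 19505 genes) compared Old with Young, and was tested on simulated data. The simulated noise was independent between genes and arrays. It held no array standing apart over many genes, so it cannot show how the fit handles such an array. Precision is limited by having 5 arrays a group. The genes, the lists and the alternatives (normalization, filters, prior, arrays left out, replicate block) were chosen with earlier results of these data known. Besides the 4 genes, the text names fixed relatives and barrier genes, list genes that varied or passed, up to 8 a list by smallest p, and the 3 most similar varying genes. The last were also picked anew without Old 2 and without Young 5.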

Additional observations from a re-analysis of the deposited data

Results flagged for a closer look

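For the 37 genes whose age difference is given, the 4 barrier genes included, the lowest or highest array of each group was compared with its nearest neighbour, and an array was taken as standing apart where the gap was above 0.71 of the group's range. Of 74 groups 15 had such an array, and chance gives about 1 in 20 groups where groups are independent. Many of these genes were named because they varied, and 7 of the 15 were choroid plexus markers in the same array. The observed share therefore cannot be set against that rate. Old 2 stood apart for Slc2a1, at 10.44 log2 against a nearest value of 10.27, for Vwf, at 7.04 against 6.48, and for Aldoc, at 11.86 against 11.74. Young 3 was high for Lcn2, at 7.34 against 5.88, low for Ifit3b, at 7.01 against 7.17, and low for Gja1, at 10.10 against 10.17. Old 1 was low for Kcnj10, at 9.19 against 9.45, and Young 5 was high for Gfap, at 9.13 against 8.90. Young 5 was also high for 7 choroid plexus markers that share this array: Ttr at 12.44 against 7.97, Kcnj13 at 8.85 against 6.35, Kl at 8.50 against 6.67, Folr1 at 7.74 against 6.52, Kcne2 at 6.89 against 5.80, Cldn1 at 6.64 against 5.96 and Steap1 at 6.22 against 5.78. Ly6c1 in Old 2 and Slco1c1 in Young 5 did not reach this gap.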

How the results depend on the processing

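With single arrays left out the age differences ran from -0.064 to 0.0057 for Slc2a1, from 0.15 to 0.21 for Abcb1a, from 0.043 to 0.18 for Ly6c1 and from -0.21 to -0.080 for Slco1c1; without Young 3 and Young 5 together they were 0.031, 0.20, 0.11 and -0.096, and without Old 2 and Young 5 they were -0.052, 0.17, 0.012 and -0.064. Slc2a1 thus lay on both sides of 0, and Ly6c1 came close to 0. Slc38a2 ran from -0.099 to 0.044, Slc1a2 from -0.0076 to 0.020 (-0.0043 after quantile normalization, -0.00040 without Young 3 and Young 5), Ttr from -1.46 to -0.13, Kl from -0.52 to -0.012, Kcnj13 from -0.63 to 0.039, Steap1 from -0.13 to 0.0084 and Cldn1 from -0.21 to -0.011. Without Young 3 and Young 5 the sign also turned for Ttr (0.062), Cldn1 (0.0068), Kl (0.022) and Kcnj13 (0.061), and without Old 2 and Young 5 for Kl (0.038), Kcnj13 (0.017) and Steap1 (0.0056); these alternatives leave out Young 5, the array with the highest choroid plexus markers. Over all genes 37 were higher and 6 lower in Old. Median centring of the arrays gave 47 and 8. C1qa, C1qb and Oasl2 then passed over all genes (limma adjusted p = 0.0156, 0.0156 and 0.0171), and they also passed after quantile normalization (0.0035, 0.0035 and 0.0038). Quantile normalization gave 154 and 6464, of which 6472 were flat genes, and 17 barrier transport and 21 endothelial genes against 0 and 0, of which 15 and 20 were flat. Restricting the fit to varying genes returned 68 and 31, a stricter SD minimum of 0.05 returned 65 and 28, and an adjusted p under 0.01 gave 21 and 2. A trended robust prior gave 10 lower, and 1 barrier transport gene, Mfsd2a, at -5.82e-05 log2. Leaving out Young 3 and Young 5 gave 22 and 2, and leaving out Old 2 and Young 5, added after seeing the data, 24 and 3. Single arrays left out gave 25 to 37 and 4 to 9, and 0 calls in both lists. The replicate number as a block gave 10 and 1. Same-numbered arrays had correlations of -0.22 to 0.28 in their deviations over the varying genes. Such correlations cannot show whether samples with the same number were handled as pairs.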
